A study of Mus musculus with 12 samples.

Results

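The step from CT0 to CT4 covers the opening of the rest phase in a circadian time course of the mouse urinary bladder. It rests on 4 of the 12 arrays of that course, chosen by their sample titles: 2 arrays of CT4 and 2 of CT0. CT4 bladders came from wild-type female C57BL/6 mice, 10 weeks old, killed at circadian time 4 h, and CT0 bladders from mice of the same strain, sex and age killed at 0 h. All had lived for 2 weeks in 12 h of light and 12 h of dark before constant darkness, so both times belong to a free-running subjective day. How long the darkness lasted and how many mice stand behind an array are not given in the labels, and p-values here measure only the spread between arrays. Total RNA of whole bladder was labelled with Cy3 and hybridised to Agilent 1-colour mouse expression arrays.

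Mice are night-active, and subjective dawn opens their resting hours, when they sleep and pass little urine. The molecular clock of each cell is a feedback loop: BMAL1 and CLOCK switch on genes through E-box elements, and the products of the period and cryptochrome genes then shut them off. A further loop runs through REV-ERB alpha and beta, nuclear receptors that E-boxes switch on and that repress the genes of BMAL1 and of NFIL3. Outputs such as DBP and TEF activate genes through D-box elements, to which the repressor NFIL3 also binds.

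A level here is the log2 signal of a gene's brightest probe minus the 75th percentile of its array, so 0 equals that percentile and negative levels lie below it. Differences are CT4 minus CT0 on this log2 scale, with a standard error (SE) from a limma fit over all 12 arrays. Of the spots, 69.3% and 66.3% were well above background on the CT4 arrays, against 65.1% and 64.4% on the CT0 arrays, and none was saturated. The 4 uroplakin markers, Krt5, Krt20 and the 5 smooth muscle markers Acta2, Actg2, Myh11, Cnn1 and Des were all well above background on these 4 arrays. CT4 lay at positions 3 and 4 of the slide and CT0 at positions 1 and 2, so position on the slide and time cannot be told apart.

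CT0 replicate 2 stood apart from the other arrays of the step. Over 18394 genes, the CT4 mean differed from it with an SD of 0.555, against 0.333 for the difference of the CT4 mean from CT0 replicate 1. Its hepatocyte transcripts were high (14 of 19 genes above CT0 replicate 1, median difference 3.41), its cell cycle transcripts were high (24 of 25 genes, median 1.28) and its adipocyte transcripts were low (2 of 17 genes above, median -1.36). Over all genes tested, 9794 of 18394 were above CT0 replicate 1, with a median of 0.02. Outlier spots numbered 82 and 80 on the CT4 arrays, against 76 on CT0 replicate 1 and 228 on CT0 replicate 2. Some values that move strongly with 1 CT0 array are also given without it, and others only with all arrays. A fit without 1 CT0 array leaves CT0 with 1 array, so its p-values and counts rest on the spread at the other times.

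Of 18394 genes tested, 1 was higher at CT4 at a Benjamini-Hochberg adjusted p under 0.05 (0.00544%) and 0 were lower (0.0%). That gene was Nr1d1. At an unadjusted p under 0.05, limma gave 741 higher genes (4.03%) and 947 lower genes (5.15%), 9.18% in all. The 2 CT4 arrays lay wholly above the 2 CT0 arrays for 18.1% of genes and wholly below for 20.5%, 38.6% in all. On simulated data of this size, the fit recovered 16.5% of changes of 0.5 log2 units, 57.4% of changes of 1 unit and 83.9% of changes of 2 units. The simulated noise was independent between genes and equal at all times, so no simulated array stood apart as CT0 replicate 2 does. These shares may therefore not hold for the real arrays.

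Nr1d1, encoding REV-ERB alpha, rose at CT4. Its level was 0.99 and 1.14 on the CT4 arrays, against -1.03 and -0.68 on the CT0 arrays (probe on chromosome 11, 98878251 to 98878753, mm7, as the array files place it). Both CT4 arrays stood above both CT0 arrays, by 1.92 ± 0.16 (SE) or 3.79-fold, with an adjusted p of 0.0490 in limma. The call lies at the edge of the threshold: the difference was 2.10 without CT0 replicate 2 (adjusted p = 0.0430) and 1.74 without CT0 replicate 1 (adjusted p = 0.0117), but it passed in only 8 of 24 alternatives, and in 2 of the 12 that left out 1 array. Of the gene's dimmer probes, one differed by 1.58 ± 0.25 and the other by 0.27 ± 0.35, and with all 3 probes averaged the difference was 1.26 (adjusted p = 0.475).

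Nr1d2, which encodes the sister receptor REV-ERB beta, had levels of 1.11 and 1.25 at CT4, against 0.41 and 0.57 at CT0. The groups did not overlap, but the difference of 0.69 ± 0.09 missed the threshold (adjusted p = 0.272). Rora encodes a receptor that competes with the REV-ERBs for the same elements and activates there. Its difference of 0.06 ± 0.15 lay within its error.

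Nfil3, the D-box repressor whose gene REV-ERB represses, ran the other way. It had 0.59 and 0.44 on the CT4 arrays, against 1.71 and 1.81 on the CT0 arrays. The groups lay far apart relative to their own spread, with a difference of -1.25 ± 0.13 (2.38-fold lower at CT4), and the call narrowly missed the threshold (adjusted p = 0.0850), which it passed in 4 of 24 alternatives. Its other probe differed by -1.10 ± 0.14.

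Of the 11 measured genes on the list of D-box factors and E-box outputs, 0 passed the threshold, and for 6 the CT4 arrays lay wholly above the CT0 arrays (background 18.1%). Dbp, an activator of D-box genes, had 4.41 and 4.77 at CT4, against 2.71 and 2.86 at CT0 (difference 1.81 ± 0.28, adjusted p = 0.328). Tef, its relative, had 1.69 and 1.77 at CT4, against 0.95 and 0.90 at CT0 (difference 0.81 ± 0.12, adjusted p = 0.272). Ciart encodes CHRONO, a repressor of the clock activators, and stood at -3.23 and -2.71 at CT4, against -5.01 and -4.12 at CT0 (difference 1.60 ± 0.33, adjusted p = 0.480). In all 3 genes both CT4 arrays were above both CT0 arrays, and none passed the threshold. Usp2, which encodes a deubiquitinase, differed by 0.66 ± 0.28, and Hlf, the other relative of Dbp, by 0.18 ± 0.25. Over this list, which also holds Nfil3, the median difference was 0.21, against -0.01 over all genes tested, and it was 0.40 without CT0 replicate 2 and 0.36 without CT0 replicate 1.

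Among these outputs, Ciart and Tef hold the E-box core CACGTG in RefSeq promoters (GRCm38.p6, 250 bases before to 50 after the start of the gene, both strands searched). The sequences are shown because the pair differ in how many copies they hold, 3 against 1. Capitals mark the E-box. Ciart lies at chr3:95882179-95882478 on the minus strand and Tef at chr15:81802423-81802722 on the plus strand.
Ciart: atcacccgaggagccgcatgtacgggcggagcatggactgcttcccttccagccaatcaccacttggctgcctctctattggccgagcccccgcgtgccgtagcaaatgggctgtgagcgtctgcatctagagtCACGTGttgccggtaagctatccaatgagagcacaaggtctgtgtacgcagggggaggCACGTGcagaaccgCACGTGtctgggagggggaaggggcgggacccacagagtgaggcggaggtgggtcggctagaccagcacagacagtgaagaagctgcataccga
Tef: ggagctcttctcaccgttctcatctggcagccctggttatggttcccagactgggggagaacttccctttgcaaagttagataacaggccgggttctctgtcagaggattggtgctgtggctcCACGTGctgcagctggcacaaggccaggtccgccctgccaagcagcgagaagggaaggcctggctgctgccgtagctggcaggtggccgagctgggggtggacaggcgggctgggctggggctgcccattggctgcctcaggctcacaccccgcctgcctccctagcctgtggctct
This core was found in 5 of the 24 clock genes that matched a promoter (20.8%) and in 7.24% of all 27025 promoters. Of the 12 largest increases given below, 10 matched a promoter and 1, Ciart, held it (10.0%). A match to letters is a description and not a binding site.

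The repressors of the loop were split. Cry1 had -3.83 and -3.93 at CT4, against -3.11 and -3.30 at CT0 (difference -0.68 ± 0.18). Its second probe differed by -0.64 ± 0.10. Cry2 had -0.48 and -0.62 at CT4, against -0.94 and -1.19 at CT0 (difference 0.51 ± 0.10). So the arrays of the 2 times did not overlap for either cryptochrome gene, in opposite directions, while both missed the threshold (adjusted p = 0.480 and 0.477). The period genes Per1, Per2 and Per3 differed by 0.28 ± 0.17, 0.15 ± 0.24 and 0.56 ± 0.34. For Per2 the arrays of the 2 times overlapped.

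Of the 4 activators, 0 passed the threshold. For 2 of them, Arntl and Clock, the CT4 arrays lay wholly below the CT0 arrays (background 20.5%). For 1, Arntl2, they lay wholly above (background 18.1%). Arntl, encoding BMAL1, had 0.25 and -0.26 at CT4, against 0.68 and 0.27 at CT0 (difference -0.48 ± 0.25). That difference was -0.27 without CT0 replicate 1, and it ranged from -0.74 to -0.23 over the fits with 1 array left out. Clock differed by -0.21 ± 0.10, Npas2 by -0.08 ± 0.32 and Arntl2 by 0.45 ± 0.25. The dimmer probes of Clock did not share 1 direction, at -0.22, 0.16 and 0.27. Of the 7 kinases, ligases and partners, Timeless had the largest difference, -0.55 ± 0.17, and it was -0.27 without CT0 replicate 2. Fbxl21 and Csnk1d differed by 0.28 ± 0.11 (0.17 without CT0 replicate 2) and -0.20 ± 0.08, while for Csnk1d the 3 dimmer probes differed in the other direction. Csnk1e, Btrc and Gsk3b lay between 0.05 and 0.26. The remaining output genes Bhlhe40, Bhlhe41, Wee1, Tspan4 and Por lay between -0.08 and 0.38.

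**Figure D1:**
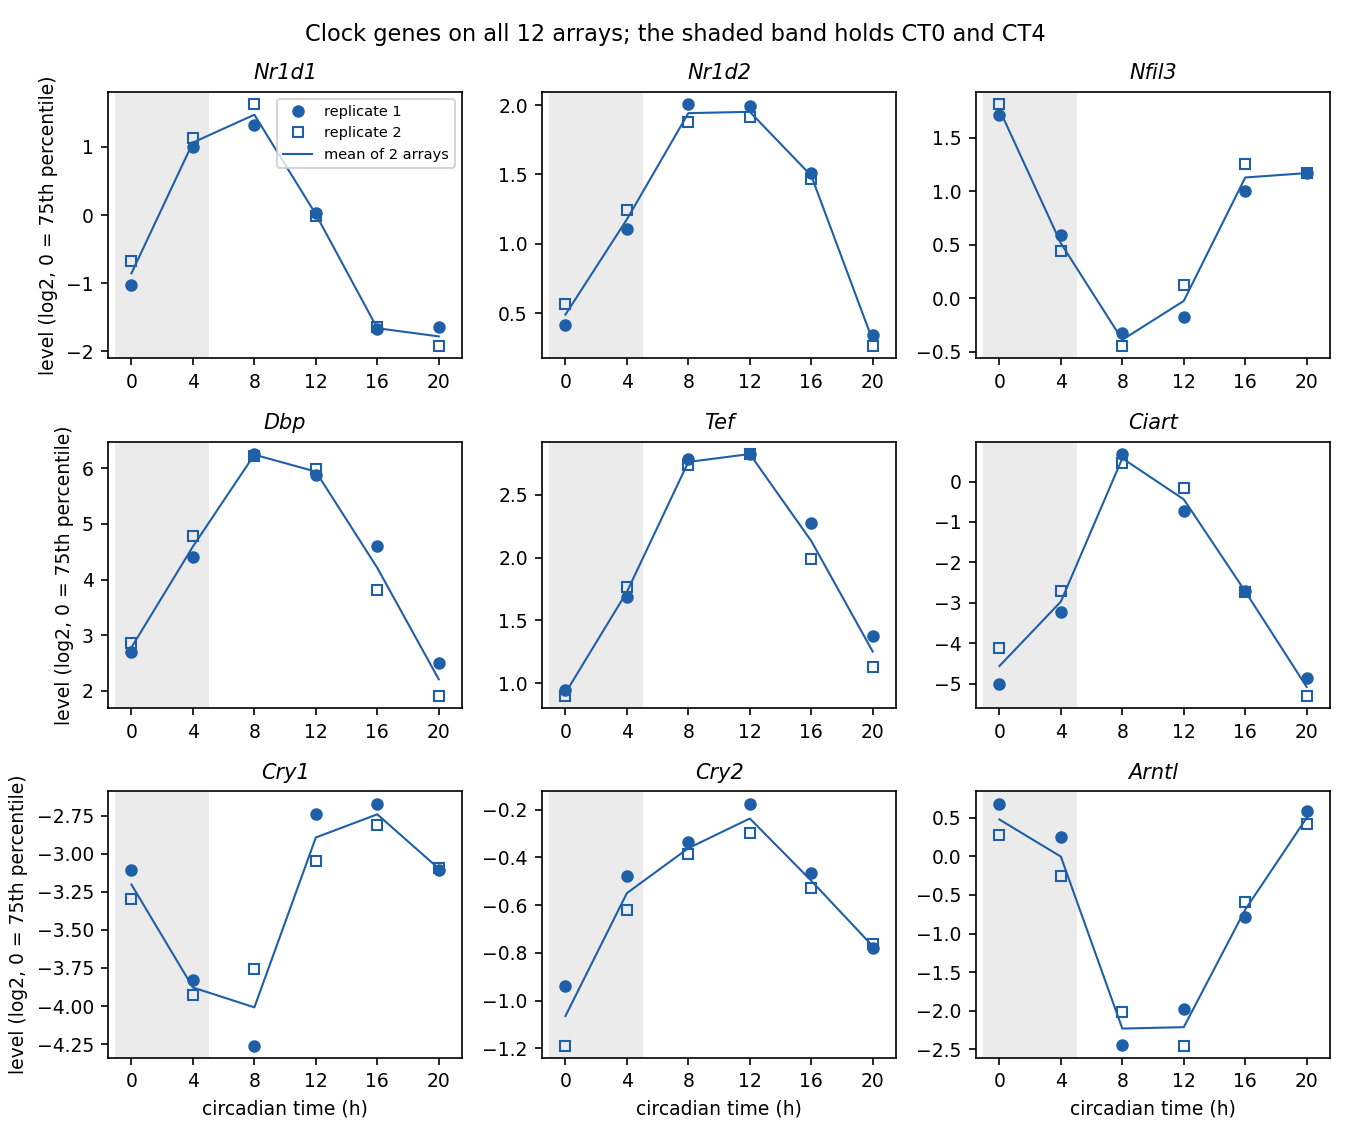
Levels of 9 clock genes (log2, 0 is the 75th percentile of the array) against circadian time in hours, with a filled circle for replicate 1, an open square for replicate 2 and a line through the means of 2 arrays. In the shaded band Nr1d1, Nr1d2, Dbp, Tef, Ciart and Cry2 lie higher at CT4 than at CT0, and Nfil3 and Cry1 lie lower.

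The step was then set against the other 4 h steps that lie within a slide, CT8 to CT12 and CT16 to CT20. These share no array with it, and in each the later time again occupies positions 3 and 4. The difference between the CT0 to CT4 step and the CT8 to CT12 step passed the threshold in 1 gene (0.00544%, with 15.2% at an unadjusted p under 0.05), Nr1d1. Its step was 1.92 from CT0 to CT4 and -1.46 from CT8 to CT12, a difference of 3.38 ± 0.23 (adjusted p = 0.00951). Against the CT16 to CT20 step, 1 gene passed again (0.00544%, with 6.76% at an unadjusted p under 0.05), and this was Nr1d2. Its step was 0.69 from CT0 to CT4 and -1.19 from CT16 to CT20, a difference of 1.87 ± 0.13 (adjusted p = 0.0150). That call was lost without CT0 replicate 2, when 0 genes passed, whereas the Nr1d1 call stood without that array. Each of the 2 counts was 0 in 6 of the 12 fits that left out 1 array, for Nr1d1 among them those without CT4 replicate 1 or CT4 replicate 2.

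Other clock genes changed sign between steps without passing the threshold. Dbp had steps of 1.81, -0.30 and -2.00 from CT0, CT8 and CT16 onward, Ciart had 1.60, -1.02 and -2.36, and Tef had 0.81, 0.06 and -0.88. Cry1 had -0.68, 1.11 and -0.36, and Nfil3 had -1.25, 0.36 and 0.04. The levels at CT4 were also not the end of the movement: mean Dbp was 4.59 at CT4 and 6.24 at CT8, and mean Ciart was -2.97 at CT4 and 0.57 at CT8, though CT8 lies on another slide.

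**Figure D2:**
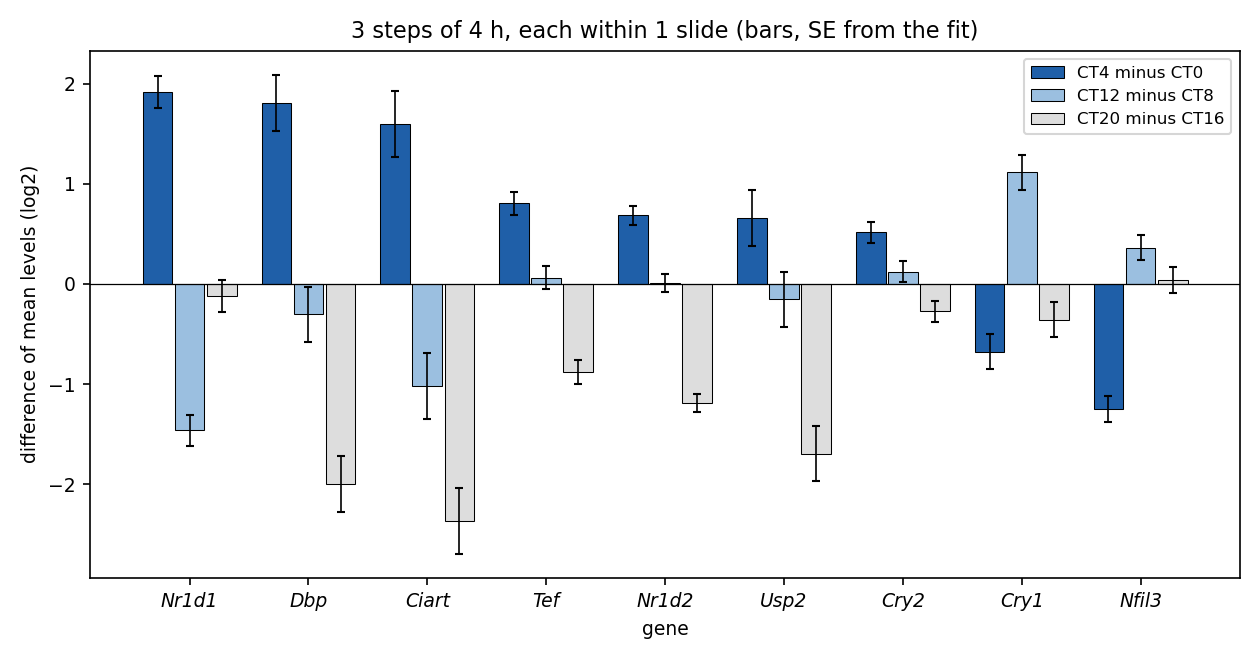
Difference of mean levels (log2) for 9 clock genes over 3 steps of 4 h, each within 1 slide; bars are CT4 minus CT0, CT12 minus CT8 and CT20 minus CT16, with the SE of the fit. Nr1d1 stands at 1.92 in the first step and -1.46 in the second, and Nr1d2 at 0.69 in the first and -1.19 in the third.

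Beyond the clock, the largest increases at CT4 that separated the arrays all missed the threshold. They comprised Tcap, Galr2, Star, Creg2, Aph1a, Mirg, Il31ra, Wfikkn1 and Bcl9, taken at an unadjusted p under 0.01, beside Nr1d1, Dbp and Ciart. Galr2, a receptor for the neuropeptide galanin, had -0.96 and -0.74 at CT4, against -2.28 and -2.31 at CT0. Its difference of 1.44 ± 0.36 was nearly the same from either CT0 array (1.43 and 1.46). Bcl9, a co-activator of Wnt signalling, had -1.35 and -1.55 at CT4, against -2.36 and -2.20 at CT0 (difference 0.83 ± 0.14, adjusted p = 0.355). A dimmer probe of Bcl9, well above background on all 4 arrays, differed by 0.36 ± 0.29.

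Tcap, which encodes telethonin of the striated muscle sarcomere, had 1.91 and 1.80 at CT4, against 0.84 and -1.13 at CT0. The difference of 2.00 ± 0.58 was 1.01 without CT0 replicate 2 and 2.99 without CT0 replicate 1, so its size rests on which CT0 array is used. Aph1a, a subunit of gamma-secretase, differed by 0.95 ± 0.28, and Mirg, a non-coding RNA of an imprinted cluster, by 0.93 ± 0.24, or 0.62 without CT0 replicate 1. The others spanned 0.83 to 1.09, from Wfikkn1 to Star, the carrier of cholesterol into mitochondria for steroid synthesis. Across the 12 largest increases, the difference lay between 0.75 and 2.10 without CT0 replicate 2.

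The 12 largest decreases were taken among genes with no overlap, all 4 arrays well above background and an unadjusted p under 0.01. They were Cenpf, Ccne2, Pbk, Kif18b, Atp2b3, Kif22, Prc1, Kif4, Ccna2, Cenpe, Ncapg and Iqgap3. Of these, Ccna2 is on the cell cycle list described further on. Lower differences with a larger p occurred too, as in Myh2 (-2.82) and Fosb (-2.50). None of the 12 passed the threshold, with adjusted p between 0.272 and 0.480. Their differences lay between -2.21 and -1.70 with all arrays, between -1.79 and -0.90 without CT0 replicate 2, and between -3.04 and -1.97 without CT0 replicate 1. In all 12, CT0 replicate 2 was the higher of the CT0 arrays, by 0.18 to 1.66, as it was in 9794 of all 18394 genes. CT0 also had the highest mean of the 6 times in all 12. The choice by a low CT4 against CT0 partly fixes that rank, and CT0 replicate 2 enters the mean. With CT0 replicate 1 alone that rank is lost in several of the genes. Ccne2 had -4.57 there, against -4.10 and -4.07 at CT16. Cenpe had 0.20 there, against 0.57 and 0.02 at CT12. The CT12 mean also lay slightly above CT0 replicate 1 in Kif4, Ncapg and Iqgap3.

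Cenpf encodes a kinetochore protein of the G2 phase and mitosis. Its level was -2.50 and -2.34 at CT4, against -1.04 and 0.62 at CT0 (difference -2.21 ± 0.50, 4.62-fold lower at CT4). Kif18b, a kinesin of the mitotic spindle, had -6.33 and -6.13 at CT4, against -4.69 and -3.98 at CT0 (difference -1.90 ± 0.26, adjusted p = 0.272). Prc1, which bundles microtubules of the central spindle, had -0.98 and -0.96 at CT4, against 0.07 and 1.60 at CT0. The CT4 arrays of these genes agree closely, and the CT0 arrays are spread. Ccne2 encodes cyclin E2, and its values were -5.77 and -5.95 at CT4, against -4.57 and -3.13 at CT0 (difference -2.02 ± 0.39). Atp2b3, a calcium pump of the plasma membrane, was also among the 12, at -4.95 and -6.00 at CT4, against -3.69 and -3.51 at CT0.

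The promoters of these 12 genes are shown because many genes of G2 and mitosis carry the cell cycle homology region TTTGAA. RefSeq promoters matched 8 of the 12, and 7 of those 8 held TTTGAA on either strand (87.5%), against 18.1% of all 27025 promoters. CCAAT was in 7 of the 8 as well (87.5%) and in 37.9% of all promoters. Neither motif is part of the other. In the cell cycle list, 20 of 25 genes matched and 8 held TTTGAA (40.0%). Below, capitals mark TTTGAA in 4 of the promoters (GRCm38.p6): Cenpf at chr1:189688037-189688336 on the minus strand, Prc1 at chr7:80294201-80294500 on the plus strand, Kif18b at chr11:102925075-102925374 on the minus strand and Kif4, a chromosome-bound kinesin, at chrX:100625815-100626114 on the plus strand.
Cenpf: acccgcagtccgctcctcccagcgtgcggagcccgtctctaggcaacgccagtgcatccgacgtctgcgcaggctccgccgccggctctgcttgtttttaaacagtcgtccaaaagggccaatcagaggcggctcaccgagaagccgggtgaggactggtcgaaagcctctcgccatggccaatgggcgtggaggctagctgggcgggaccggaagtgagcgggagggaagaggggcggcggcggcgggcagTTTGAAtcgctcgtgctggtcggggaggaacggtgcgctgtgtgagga
Prc1: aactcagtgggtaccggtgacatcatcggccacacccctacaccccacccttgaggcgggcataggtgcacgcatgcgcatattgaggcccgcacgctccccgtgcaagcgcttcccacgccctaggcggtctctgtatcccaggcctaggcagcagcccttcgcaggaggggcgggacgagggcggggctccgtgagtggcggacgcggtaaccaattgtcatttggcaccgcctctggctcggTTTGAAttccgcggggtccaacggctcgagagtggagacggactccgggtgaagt
Kif18b: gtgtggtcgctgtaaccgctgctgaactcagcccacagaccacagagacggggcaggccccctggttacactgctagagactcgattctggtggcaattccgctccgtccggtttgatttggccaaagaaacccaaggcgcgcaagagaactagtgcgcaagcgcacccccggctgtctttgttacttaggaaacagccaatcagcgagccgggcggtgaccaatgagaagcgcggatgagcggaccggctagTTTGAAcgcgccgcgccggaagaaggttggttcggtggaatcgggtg
Kif4: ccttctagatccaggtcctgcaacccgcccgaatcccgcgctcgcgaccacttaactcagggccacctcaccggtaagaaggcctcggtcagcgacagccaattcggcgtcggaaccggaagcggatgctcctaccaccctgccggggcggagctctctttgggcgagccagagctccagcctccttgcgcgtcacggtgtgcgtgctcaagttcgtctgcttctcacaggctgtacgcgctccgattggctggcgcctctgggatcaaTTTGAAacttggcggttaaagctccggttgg
The 12 genes were picked by their difference on these arrays, so the share with TTTGAA is a description of them and has no test.

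Of 25 measured genes on the cell cycle list, 0 passed the adjusted threshold, 13 were lower at an unadjusted p under 0.05 (background 5.15%) and 0 higher (background 4.03%), and the median difference was -1.17, against -0.01 over all genes. The median was -0.56 without CT0 replicate 2, with 7 lower genes (background 2.54%) and 0 higher genes (background 2.42%), and -1.75 without CT0 replicate 1. Summed over the list on a linear scale, the level was 60.0 and 61.4 at CT4, against 63.0 and 112.0 at CT0. By this sum the CT4 arrays sit just under CT0 replicate 1, and CT0 replicate 2 is well above all others.

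The list divides by phase, a split made after its values had been seen. All 12 genes of G2 and mitosis, among them Ccna2, Ccnb1, Cdc20, Mki67 and Bub1, were lower on both CT4 arrays than on CT0 replicate 1. Over all genes tested, the same held for 6231 of 18394. The differences of the 12 genes were -1.13 to -0.56 without CT0 replicate 2 and -2.85 to -1.75 without CT0 replicate 1. The 9 genes of DNA replication include the Mcm helicase subunits and Pcna. Of these 9, 3 were under CT0 replicate 1 on both CT4 arrays, close to the share over all genes. Their differences were -0.59 to 0.31 without CT0 replicate 2. Rrm2, of nucleotide synthesis, was the lowest of these at -0.59. Ccna2, the cyclin of S phase and G2, had -2.03 and -2.14 at CT4, against -0.96 and 0.32 at CT0. Its mean was -1.61 at CT8, -0.99 at CT12, -2.54 at CT16 and -1.85 at CT20, so CT4 was not its lowest time. In bulk tissue, fewer dividing cells and less RNA per cell cannot be told apart.

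**Figure D3:**
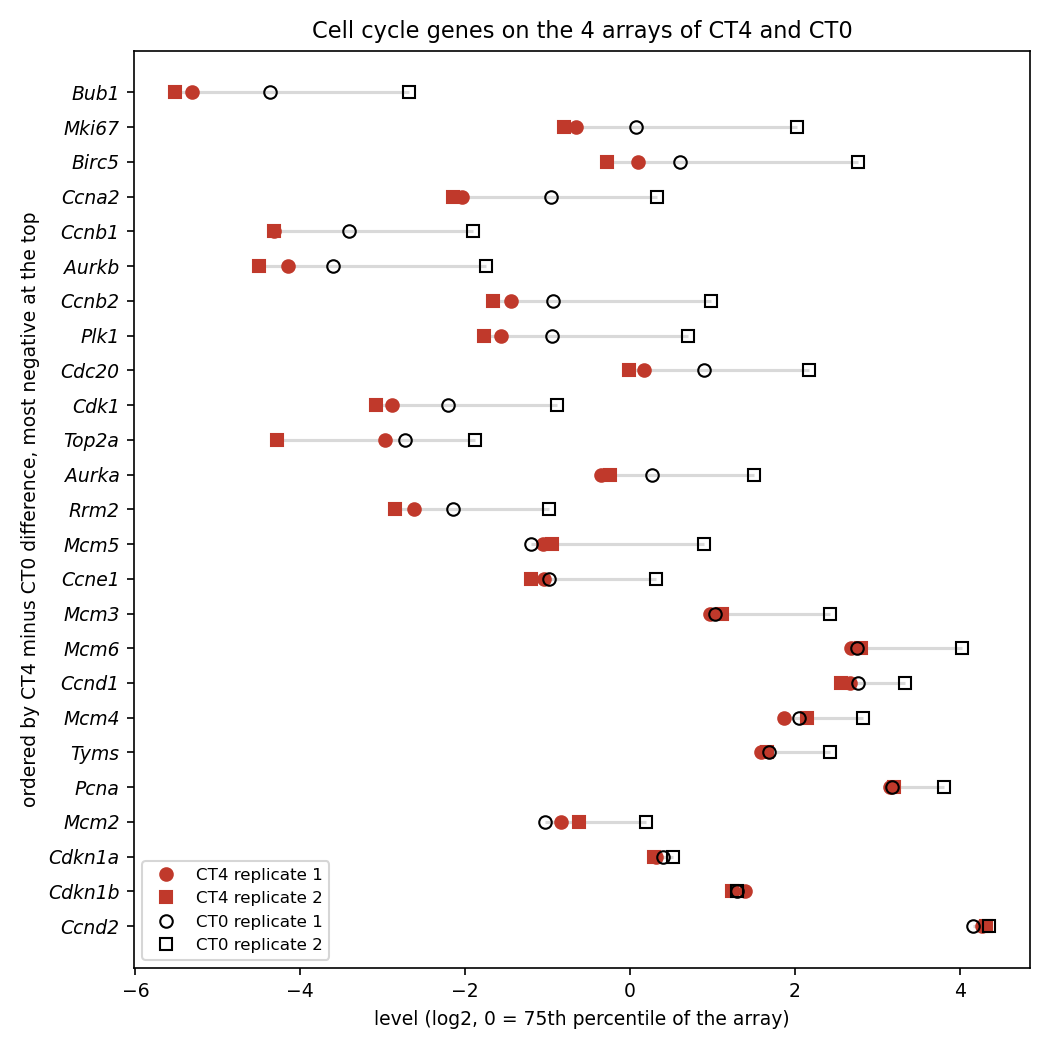
Levels (log2, 0 is the 75th percentile of the array) of the 25 cell cycle genes on the CT4 arrays (filled symbols) and the CT0 arrays (open symbols), ordered by CT4 minus CT0 difference with the most negative at the top. The 12 genes of G2 and mitosis fill the upper rows with both CT4 points left of both CT0 points, and for Mcm5, Mcm3, Mcm6 and Pcna the open circle of CT0 replicate 1 lies with the CT4 points.

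Immediate early genes respond within minutes to growth signals, stretch and handling, and many of them encode transcription factors. Of 23 measured, 0 passed the threshold, 7 were lower at an unadjusted p under 0.05 (background 5.15%) and 1, Ier3, was higher (background 4.03%), with a median difference of -0.31. Without CT0 replicate 2 that count was 1 lower (background 2.54%) and 0 higher (background 2.42%), and the median was -0.26. Egr1 had 1.53 and 1.21 at CT4, against 2.48 and 3.13 at CT0 (difference -1.43 ± 0.42). Egr2 had -1.36 and -1.97 at CT4, against -0.55 and 0.47 at CT0 (difference -1.63 ± 0.45). Egr4 was not well above background on either CT4 array and was at least 2.44-fold brighter at CT0 (adjusted p = 0.272). Fosb and Nr4a1 lie outside the rule for named genes and were chosen after their values were seen: they differed by -2.50 and -1.52. For all 5 genes the CT4 arrays lay below both CT0 arrays, which their choice by small p or by value favours. Over the whole list this held for 12 of 23 genes (background 20.5%). For 1 gene the CT4 arrays lay wholly above (background 18.1%).

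Of 22 muscarinic, adrenergic and purinergic receptors, which set bladder tone, 0 passed the threshold. At an unadjusted p under 0.05, 4 were lower (background 5.15%) and 1 higher (background 4.03%), and without CT0 replicate 2 it was 2 lower (background 2.54%) and 1 higher (background 2.42%). Differences spanned -1.10 to 0.77 around a median of -0.06. The lowest was that of Chrm3, a muscarinic receptor of bladder muscle named after its value was seen, which was -0.19 without CT0 replicate 2. Adra2a, an inhibitory adrenergic receptor, had -1.49 and -1.55 at CT4, against -0.90 and -1.11 at CT0 (difference -0.52 ± 0.12). Another bright probe of Adra2a differed by -0.50 and a dim one by 0.38. Chrm4, a muscarinic receptor, and P2rx7, an ATP-gated channel, differed by -0.65 ± 0.21 and -0.43 ± 0.15. These 3 differences kept their direction from either CT0 array, but a dimmer probe of P2rx7 differed by 0.18 ± 0.25.

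Connexins couple muscle cells and urothelial cells, and the study behind the series asked about one of them, the product of Gja1. Of 13 genes on the connexin list, 0 passed. Gja1, which encodes the main connexin of bladder muscle, had -1.36 and -1.19 at CT4, against -1.31 and -1.56 at CT0. The groups overlapped for Gja1, and its difference of 0.16 lay within the spread (adjusted p = 0.814).

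The urothelium list of 25 genes had a median difference of 0.10 with 0 genes past the threshold. Cldn4, a claudin of tight junctions, was its member with the smallest p, at 0.32 and 0.69 at CT4, against -0.23 and -0.30 at CT0 (difference 0.77 ± 0.19, adjusted p = 0.480). Scnn1g, a subunit of the epithelial sodium channel, had 2.02 and 2.23 at CT4, against 1.84 and 1.40 at CT0 (difference 0.51 ± 0.15). Atp1b1, of the sodium pump, differed by 0.38 ± 0.14. On their list of 20 channels and transporters, these were the 2 genes higher at an unadjusted p under 0.05 (background 4.03%), and 0 were lower (background 5.15%). Without CT0 replicate 2 their differences were 0.29 and 0.15, and 0 genes of the list were higher (background 2.42%).

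The smooth muscle and matrix lists had medians below 0. Of 21 contractile genes 0 passed and 9 were lower without overlap (background 20.5%), with a median of -0.27 that became -0.04 without CT0 replicate 2. Myh11, the smooth muscle myosin, had 6.98 and 7.18 at CT4, against 7.37 and 7.39 at CT0 (difference -0.30 ± 0.13), and the value was -0.29 without CT0 replicate 2. Among 28 genes of hyaluronan, proteoglycan and matrix turnover, 5 were lower (background 5.15%) and 1 higher (background 4.03%) at an unadjusted p under 0.05, with a median of -0.28. Without CT0 replicate 2 it was 1 lower (background 2.54%) and 1 higher (background 2.42%), with a median of -0.09. Fn1, encoding fibronectin, had 1.93 and 2.22 at CT4, against 2.77 and 3.45 at CT0 (difference -1.03 ± 0.28). Eln, encoding elastin, differed by -1.38 ± 0.43, or -0.68 without CT0 replicate 2. Hyal1, an enzyme that degrades hyaluronan, was the higher gene, at 0.37 and 0.63 at CT4, against 0.05 and -0.13 at CT0.

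Genes tied to fasting and hormones were mixed, and 0 of them passed the threshold. Of 24 fasting and FoxO genes 5 were higher (background 4.03%) and 1 lower (background 5.15%) at an unadjusted p under 0.05, and without CT0 replicate 2 it was 1 higher (background 2.42%) and 1 lower (background 2.54%). Plin2, a coat protein of lipid droplets, differed by 0.40 ± 0.12. Bcl6, a repressor of transcription, had 2.46 and 2.77 at CT4, against 3.21 and 3.30 at CT0 (difference -0.64 ± 0.17). Klf9, a zinc finger factor that glucocorticoids induce, had 1.77 and 1.52 at CT4, against 1.04 and 1.08 at CT0 (difference 0.58 ± 0.13). At an unadjusted p under 0.05 it was the 1 higher gene among 12 Kruppel-like factors (background 4.03%), of which 1, Klf12, was lower (-0.39 ± 0.16, or -0.18 without CT0 replicate 1). Klf15 differed by 0.75 ± 0.33, or 0.34 without CT0 replicate 2. Angptl7, a secreted protein, was the lower of the glucocorticoid-responsive genes, at -3.19 and -3.06 at CT4, against -1.40 and -1.90 at CT0 (difference -1.47 ± 0.31).

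Of 21 chemokine and cytokine genes, 2 were higher (background 4.03%) and 3 lower (background 5.15%) at an unadjusted p under 0.05, and without CT0 replicate 2 it was 0 and 0 (background 2.42% and 2.54%). Dnajb1, a heat shock co-chaperone, differed by -0.30 ± 0.10, and Dnajc3, a co-chaperone of the endoplasmic reticulum, by 0.32 ± 0.13. Isg15, an interferon-induced modifier, differed by 0.36 ± 0.11. Il1b, the inflammatory cytokine, had -3.72 and -4.49 at CT4, against -3.15 and -1.82 at CT0 (difference -1.62 ± 0.48, or -0.95 without CT0 replicate 2), whereas the chemokine Cxcl12 differed by 0.37 ± 0.13. Median differences of the heat shock, endoplasmic reticulum, interferon, cytokine, autophagy, oxidative stress and lipid synthesis lists lay between -0.08 and 0.14, and 0 of their genes passed the threshold.

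Markers of other tissues varied between arrays of 1 time. The hepatocyte list had a median difference of -0.73 over 19 genes, which was 0.79 without CT0 replicate 2 and -2.67 without CT0 replicate 1. Alb, which encodes albumin, had -1.42 and -0.02 at CT4, against -1.51 and 2.03 at CT0. The adipocyte list had a median of 1.02 over 17 genes, 0.06 without CT0 replicate 2 and 1.70 without CT0 replicate 1. Adipoq, which encodes adiponectin, had 5.74 and 3.95 at CT4, against 4.83 and 1.38 at CT0. Summed linear levels of the adipocyte list were 962 and 503 at CT4, against 714 and 330 at CT0. The groups overlap for both genes and for this sum. The ganglion neuron list had a median of 0.25, or -0.47 without CT0 replicate 2, although Th was not well above background on any of the 4 arrays. The other marker lists, with 0 genes past the threshold, had medians of -0.06 for fast skeletal muscle, 0.02 for slow and cardiac muscle, 0.05 for Schwann cells and glia, -0.11 for leukocytes, 0.03 for the female reproductive tract and 0.62 for the 3 measured red blood cell genes. The endothelial median was 0.0030. The part of these transcripts in the results above was not tested. Among the clock genes, the difference without CT0 replicate 2 and without CT0 replicate 1 was 1.88 and 1.74 for Dbp and -1.20 and -1.30 for Nfil3, but 2.04 and 1.15 for Ciart, 0.39 and 0.64 for Cry2 and -0.27 and -0.83 for Timeless, and it changed sign for Hlf and Per2.

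**Figure D4:**
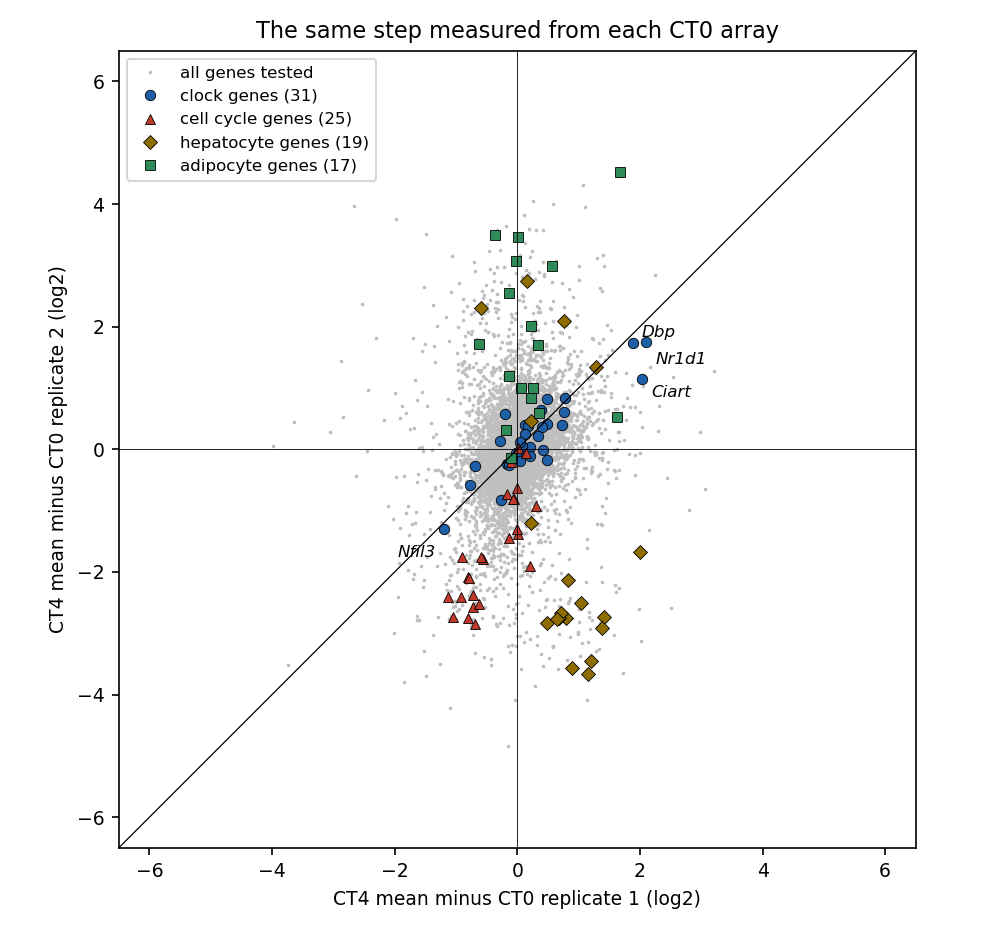
CT4 mean minus CT0 replicate 1 (horizontal axis, log2) against CT4 mean minus CT0 replicate 2 (vertical axis, log2) for 18394 genes in grey and for 4 gene groups in colour; the oblique line marks equal values. Nr1d1, Dbp and Nfil3 lie near the line, whereas many cell cycle, hepatocyte and adipocyte genes lie further from 0 on the vertical axis than on the horizontal one.

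**Figure D5:**
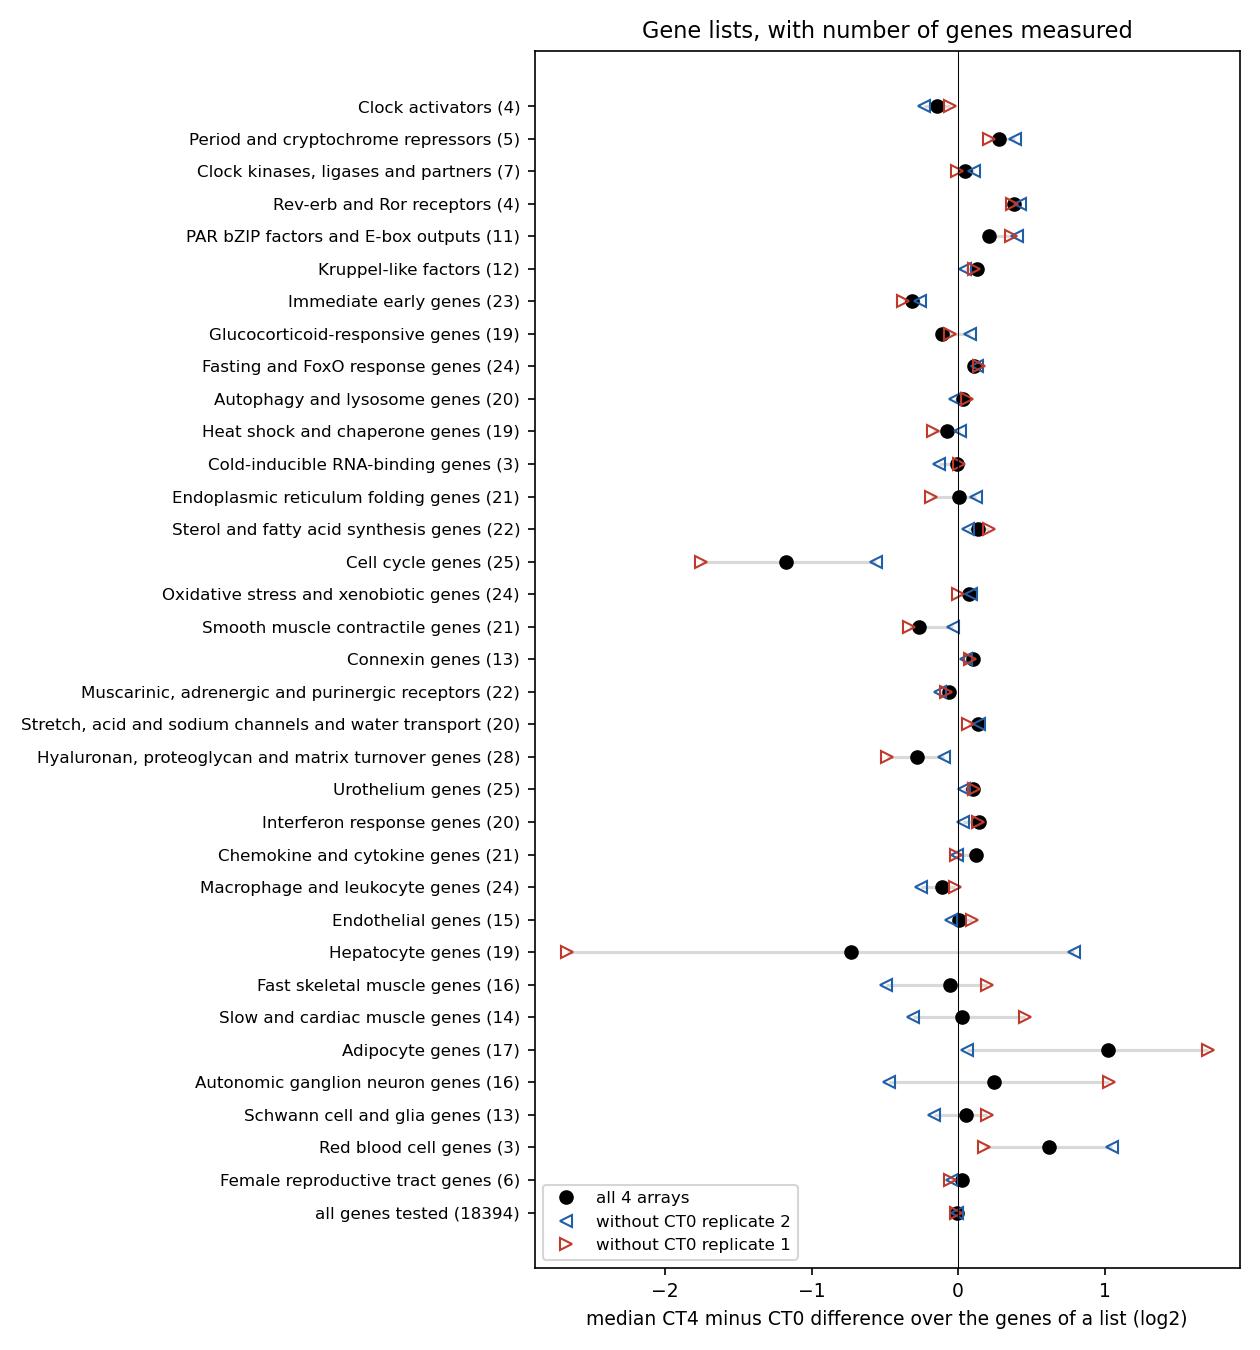
Median CT4 minus CT0 difference (log2) over the measured genes of each list, with all 4 arrays (filled circle), without CT0 replicate 2 (triangle to the left) and without CT0 replicate 1 (triangle to the right). The cell cycle list lies at -1.17, -0.56 and -1.75, and the hepatocyte list changes sign between 0.79 and -2.67.

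The CT0 array that is left out also sets how many genes pass. In each such fit CT0 is 1 array with no spread of its own. The calls then measure how far that array lies from CT4, and not a replicated step. Without CT0 replicate 2, limma called 2 genes higher (0.0109%) and 1 lower (0.00544%). The higher ones were Nr1d1 and Ywhaz, which encodes a 14-3-3 protein and had 2.72 and 2.67 at CT4, against 1.43 and 2.63 at CT0. The lower one was TC1525352, a transcript without a gene name. Without CT0 replicate 1, it called 72 genes higher (0.391%) and 174 lower (0.946%), and 16 of the 25 cell cycle genes were among the lower. Nr1d1 was past the threshold in both.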

How the data were processed

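Scanner files deposited by the authors hold intensity per spot (gProcessedSignal, background-subtracted and detrended by Agilent Feature Extraction 10.5.1.1, per the file headers), not normalised between arrays. The deposited value table of log2 values, whose scaling is not given in the sources used here, served as an alternative; the submitters' processing notes name R 2.8.1. Outlier spots were dropped, 43379 non-control spots were averaged to 40903 probes, and log2 intensity was scaled by the 75th percentile of each array. Names came from RefSeq (accession for 22790 probes, symbol for 6627, synonym for 3090); 8396 kept the name in the file, and 14631 of 18394 tested genes have a gene name. Each gene is its brightest probe, well above background on at least 4 of 12 arrays.

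A 1-way fit over 6 times (limma 3.58.1, R 4.3.3, 6 residual degrees of freedom, eBayes) gave two-sided tests with Benjamini-Hochberg adjustment and a threshold of 0.05. A permutation test of 2 arrays against 2 cannot go below an exact p of 0.333 and was not used. The fit was tested on simulated data with 200 changed genes. Tables were made in Python 3.11.15 with pandas 2.3.3 and numpy 2.4.6. Arrays limit the precision by their number. Bounds use the lowest signal well above background on each array.

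Members, tests and the 34 gene lists were chosen with earlier results of these data known. Named genes were all measured clock genes (31 of 32), the 12 largest increases and 12 largest decreases with a gene name, detection and no overlap on the 4 arrays (filled up at an unadjusted p under 0.01), up to 3 genes per list with the smallest p, and up to 5 per difference between steps; not all are printed, and some items are not reported here. Alternatives covered the samples in the fit, background, scaling, the authors' table, filters, probes, replicate number as a block, the variance prior, array weights and each array left out. Probe coordinates are on mm7, with no annotation of that build used here.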

Additional observations from a re-analysis of the deposited data

Results flagged for a closer look

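Nr1d1 stood out because its CT0 to CT4 step and its CT8 to CT12 step differ by the test of the difference itself: 3.38 ± 0.23 (log2, SE; limma adjusted p = 0.00951), with both CT4 arrays above both CT0 arrays and both CT12 arrays below both CT8 arrays.

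Nr1d2 stood out because its CT0 to CT4 step and its CT16 to CT20 step differ by 1.87 ± 0.13 (adjusted p = 0.0150). Its own step of 0.69 did not pass the threshold.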

How the results depend on the processing

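The number of genes past the threshold for CT4 minus CT0, 1 as reported, was 0 with slide 1 alone, quantile normalisation, the mean of all probes, the replicate block, a robust variance prior or array weights, 2 with normexp background or an intensity trend in the prior, 3 with the authors' value table and 6 with no filter on dim probes. Median scaling and the filter on these 4 arrays left it at 1. Leaving out 1 array gave 0 to 246, the count being 3 without CT0 replicate 2, 246 without CT0 replicate 1 and 0 without each of the other arrays. Beside these counts of 0, the reported setting gave 1688 genes at an unadjusted p under 0.05. A fit with 1 array left out has 1 time without a replicate, and its count rests on the spread at the other times.

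For the difference from the CT8 to CT12 step, 1 as reported, the count was 2 with normexp, the authors' table or the replicate block, 0 with the mean of all probes, and 0 to 240 with 1 array left out (240 without CT0 replicate 1). For the difference from the CT16 to CT20 step, also 1, it was 4 with normexp, 6 with the authors' table, 0 with median scaling, no filter or the replicate block, 3 with the filter on these 4 arrays, 5 with an intensity trend, and 0 to 125 with 1 array left out (125 without CT0 replicate 1). The cause was not tested. Replicate numbers are not stated to pair arrays. Over genes, the deviations of CT4 replicate 1 and CT0 replicate 1 from the means of their times correlated at 0.35. With 2 arrays a time, the deviations of replicate 2 mirror these and add no further value.

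Of named genes, these changed sign, none of them past the threshold as reported. With 1 array left out, the difference ranged from -0.21 to 0.57 for Hlf, -0.067 to 0.48 for Bhlhe40, -0.14 to 0.23 for Wee1, -0.19 to 0.039 for Tspan4, -0.44 to 0.28 for Npas2, -0.17 to 0.48 for Per2, -0.026 to 0.12 for Csnk1e, -2.75 to 0.79 for Alb and -3.65 to 0.45 for TC1525352. Wee1 was -0.042 with normexp, -0.014 with quantile normalisation and -0.030 with the authors' table, and Csnk1d was 0.11 with the mean of all probes. With 2 arrays a time, the slide position tied to time and CT0 replicate 2 apart, small differences are beyond reach.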

Other observations

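Several genes outside the clock and cell cycle lists are given here as values. Ttr, which encodes transthyretin, a carrier of thyroid hormone and retinol, had -3.27 and -3.66 at CT4, against -4.75 and -4.80 at CT0. It is on the hepatocyte list, yet its difference was 1.29 without CT0 replicate 2 and 1.34 without CT0 replicate 1, while Alb changed sign. Pparg, the master regulator of fat cell formation, had 4.51 and 4.42 at CT4, against 4.11 and 3.88 at CT0. Lep, which encodes leptin, had -0.56 and -3.03 at CT4, against -3.47 and -6.32 at CT0, a difference of 1.67 without CT0 replicate 2 and 4.53 without CT0 replicate 1.

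Myh2, a fast skeletal muscle myosin, had 0.97 and -0.13 at CT4, against 2.26 and 4.22 at CT0, a difference of -1.84 without CT0 replicate 2 and -3.79 without CT0 replicate 1. Cx3cl1, a chemokine, and Esm1, which endothelium secretes, differed by -0.35 and -0.39. Atg5, of autophagosome formation, differed by -0.17. None of these passed the threshold.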
